A study of Mus musculus with 56 samples.

Results

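The 45 genes described here are interferon-stimulated genes and their regulators, taken by symbol from the 15224 genes that a probe with a single gene symbol represented on the arrays. The rule took the Ifi, Ifit, Ifitm, Oas and Oasl, Gbp and Irf families and named genes such as Mx1, Mx2, Rsad2, Bst2, Samd9l, Rtp4, Trim30a, Dhx58 and Stat2, and each was read by 1 probe. By role they were 2 sensors of viral RNA, 9 transcription factors, 9 antiviral effectors, 7 members of the oligoadenylate synthetase family, 5 interferon-inducible GTPases, 4 Ifitm genes, 3 genes of the Ifi200 family and 6 other interferon-induced genes. Of the 45 members, 3 never lay above the percentile 25 of all values (6.30, log2) on any array, and 7 had blank cells.

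Interferons bind receptors whose Janus kinases phosphorylate STAT proteins, and a complex that holds STAT2 and IRF9 then binds interferon-stimulated response elements in the promoters of these genes. Their products sense viral nucleic acids, degrade or mask viral RNA, block virus entry or signal onward, and IRF7 amplifies the production of further type I interferon. In the brain, microglia and infiltrating macrophages both make and answer to interferon, and neural and tumour cells can answer too.

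Levels were measured in 56 FVB/N mouse samples, each on its own Affymetrix whole-transcript array. There were 32 medulloblastomas of GTML mice, in which a glutamate transporter promoter drives a tetracycline-controlled MYCN transgene, and 5 cerebella at postnatal day 7 (P7) from GTML mice on doxycycline, which silences the transgene. A further 9 tumours grew orthotopically from neural stem cells (NSCs) that carried the stabilised N-myc form T58A, 3 each from embryonic day 16 cerebellum (E16C), postnatal day 0 cerebellum (P0C) and postnatal day 0 forebrain (P0F). The other 10 arrays held cultures with no replicate: tumour-derived cells (1 array for each of the 3 origins and 1 for GTML), NSCs with N-myc (E16C and P0C), and control NSCs with GFP (E16C, P0F, and P0C both sorted for GFP and unsorted). The labels name tumour 1 of each origin as the source of its culture, and call the P0F source a glioma. The sources used here give neither the strain and immune state of the transplanted mice nor whether the tumours of an origin came from separate NSC cultures. The p-values thus measure only the spread between these samples. GTML tumours and P7 cerebella were labelled by another protocol than the transplant series, so a difference between these sets cannot be told apart from labelling.

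Array medians ran from 7.86 to 8.25. The 4 photoreceptor-like markers that GTML tumours carry averaged 11.30 to 12.90 in 28 of them but 6.85, 8.80, 10.06 and 8.06 in tumours 20, 22, 30 and 31, so results over GTML tumours are also given without these 4. The member levels of each array, set against the P7 mean of the same gene, are shown in the heat map.

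**Figure D1:**
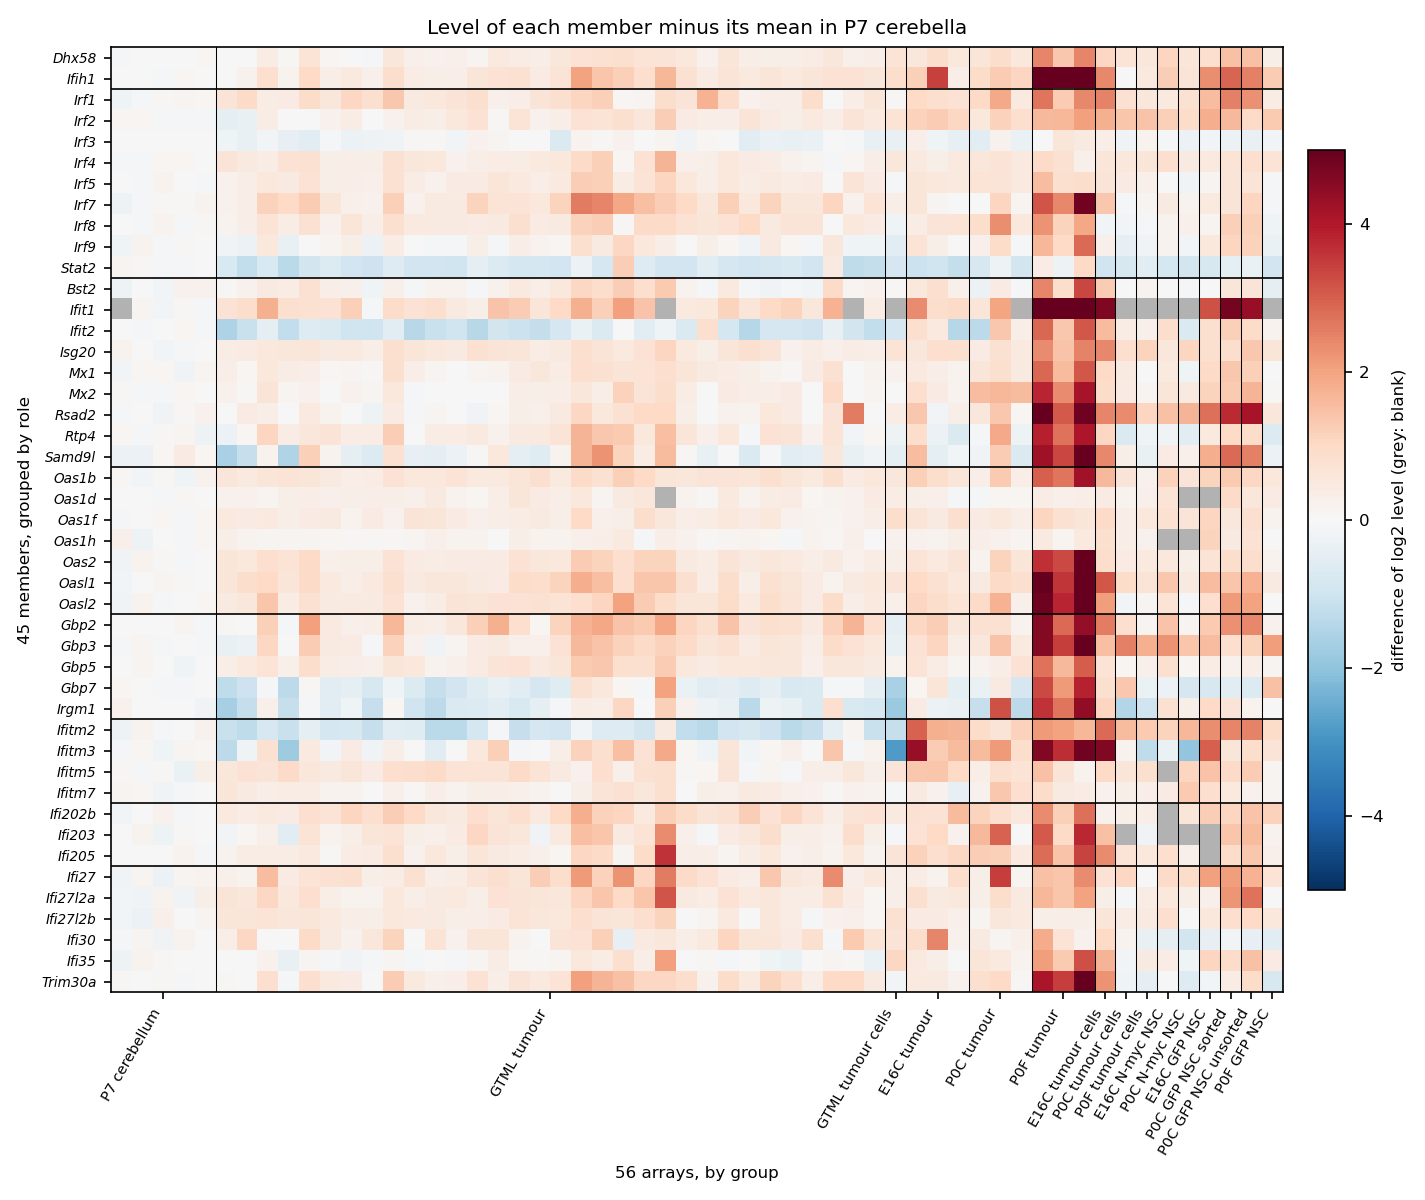
Heat map of the 45 members (rows, grouped by role) in the 56 arrays (columns, by group). Colour is the log2 level minus the gene's mean in the 5 P7 cerebella, red higher and blue lower, limited to 5 either way, and grey is a blank cell. The 3 P0F tumours form the reddest columns, and Ifit1 lies past the end of the colour scale in each of them.

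Response element letters were looked for in RefSeq promoter windows of 300 bases around the transcription start (GRCm38.p6, both strands, overlapping matches counted). The letters GAAANNGAA, the core of the interferon-stimulated response element, occurred in the windows of 17 of the 35 members with a listed promoter (48.6%) and not in those of the other 18, against 8.56% of all 32851 promoters and 9.76% of the 27025 genes. Of the 16 members higher in P0F than in P0C tumours, 13 had a listed promoter and 9 of these held the letters. The 5 windows printed are those of the members with the letters whose levels ran most closely with myeloid markers in GTML tumours, by the p of that test, and where RefSeq lists several windows the one with most matches is shown. Capitals mark the letters or their reverse complement on the gene's own strand. They lie at chr3:142620413-142620712 (+) for Gbp2, chr3:142559794-142560093 (+) for Gbp3, chr7:104446076-104446375 (-) for Trim30a, chr7:140955912-140956211 (-) for Ifitm2 and chr3:142530086-142530385 (+) for Gbp7.
Gbp2: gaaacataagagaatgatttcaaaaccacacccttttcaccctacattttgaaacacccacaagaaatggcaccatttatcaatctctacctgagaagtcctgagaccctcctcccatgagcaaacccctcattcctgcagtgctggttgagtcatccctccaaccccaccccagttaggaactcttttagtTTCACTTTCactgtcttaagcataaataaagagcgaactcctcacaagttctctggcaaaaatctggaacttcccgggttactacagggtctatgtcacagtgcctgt
Gbp3: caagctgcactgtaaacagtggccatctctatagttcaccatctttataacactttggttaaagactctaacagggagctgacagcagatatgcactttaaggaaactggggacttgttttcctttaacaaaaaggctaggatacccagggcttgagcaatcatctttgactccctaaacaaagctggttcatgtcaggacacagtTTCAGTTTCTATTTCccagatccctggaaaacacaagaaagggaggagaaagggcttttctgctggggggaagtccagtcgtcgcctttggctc
Trim30a: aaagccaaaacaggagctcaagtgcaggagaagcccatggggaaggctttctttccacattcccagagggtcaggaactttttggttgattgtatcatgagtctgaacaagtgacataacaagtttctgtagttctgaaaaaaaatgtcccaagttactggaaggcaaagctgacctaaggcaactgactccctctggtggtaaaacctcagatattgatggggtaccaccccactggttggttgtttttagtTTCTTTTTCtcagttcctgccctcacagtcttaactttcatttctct
Ifitm2: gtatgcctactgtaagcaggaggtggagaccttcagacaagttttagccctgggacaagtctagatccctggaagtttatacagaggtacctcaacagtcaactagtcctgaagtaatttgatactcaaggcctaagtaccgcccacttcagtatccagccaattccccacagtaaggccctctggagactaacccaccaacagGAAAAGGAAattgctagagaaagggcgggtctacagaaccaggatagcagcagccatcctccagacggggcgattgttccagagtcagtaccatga
Gbp7: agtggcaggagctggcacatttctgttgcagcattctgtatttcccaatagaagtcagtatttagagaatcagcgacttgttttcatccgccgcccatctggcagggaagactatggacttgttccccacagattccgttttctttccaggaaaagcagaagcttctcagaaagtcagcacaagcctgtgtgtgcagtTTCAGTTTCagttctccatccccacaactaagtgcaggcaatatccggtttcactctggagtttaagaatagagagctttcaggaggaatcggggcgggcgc
Gbp3 held a pair of overlapping matches and the other windows a single match each. Irf7, Oasl1, Oasl2 and Isg20 had listed windows in which these letters did not occur.

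P0F tumours carried more of many of these transcripts than tumours of cerebellar origin, with Ifit1, Ifih1, Oasl1 and Samd9l 4 or more log2 units higher than in P0C tumours. Against P0C tumours, tested with limma across 11633 genes, 16 of the 39 members that could be tested were higher and 0 were lower at an adjusted p under 0.05, where 0.817% of all genes tested were higher. Testing required 3 of the compared arrays to exceed the percentile 25, and 18 of the 39 members passed only through the P0F tumours. Of those 18, 11 were higher: Gbp2, Gbp5, Ifih1, Ifit1, Irf7, Mx1, Oas1b, Oas2, Rsad2, Samd9l and Trim30a. Of the other 21, 5 were higher: Gbp3, Gbp7, Isg20, Oasl1 and Oasl2. With no filter, 13 of the 45 members were higher, against 0.399% of 14786 genes. The median difference over the tested members was 1.92, against 0.00 over all genes. Leaving out P0C tumour 1, P0C tumour 3, P0F tumour 1 or P0F tumour 3 reduced the 16 to 3, 6, 2 and 8.

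The direction was shared by most members, whether or not they passed. Every P0F tumour lay above every P0C tumour for 29 of the 39 tested members (13.3% of all genes tested), and above every E16C tumour for 31 of 38 (10.7%). All 3 P0F tumours lay above all 6 tumours of cerebellar origin for 28 of the 45 members, against 4.09% of all 15224 genes. For 15 of the 45 (Gbp2, Gbp3, Gbp5, Gbp7, Ifih1, Ifit1, Mx1, Mx2, Oas1b, Oas2, Oasl1, Oasl2, Rtp4, Samd9l and Trim30a) they lay above the other 53 arrays as well, against 0.716% of genes. P0F tumour 2 was the lowest of the 3 for 36 members and P0F tumour 3 the highest for 29.

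Among the sensors, Ifih1, which encodes the double-stranded RNA sensor MDA5, stood at 11.45, 10.28 and 10.79 in P0F tumours, 6.25, 6.58 and 6.37 in P0C tumours and 6.52, 8.74 and 5.67 in E16C tumours. The P0F tumours were clear of all the others, and E16C tumour 2 was the highest of the cerebellar ones. Ifih1 was higher than in P0C tumours by 4.44 ± 0.67 (log2, SE, limma adjusted p = 0.0224). Dhx58, which encodes the MDA5 partner LGP2, stood at 8.05, 6.96 and 8.08 in P0F tumours and between 6.13 and 6.52 in the 6 cerebellar tumours, with a difference from P0C tumours of 1.40 ± 0.30 that missed the threshold (limma adjusted p = 0.0622).

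Irf7 was the transcription factor with the widest difference. Its level was 9.22, 8.47 and 10.89 in P0F tumours, 6.05, 7.13 and 6.19 in P0C tumours and 6.68, 6.21 and 6.07 in E16C tumours. No P0F tumour overlapped either group, and the difference from P0C tumours was 3.07 ± 0.56 (limma adjusted p = 0.0413). Irf9, the DNA-binding partner of the STAT complex, stood at 9.39, 8.73 and 10.55 in P0F tumours against 7.62 to 8.63 in the cerebellar ones, and Stat2 at 8.85, 8.26 and 9.49 against 7.31 to 8.25. Neither overlapped, Stat2 by a narrow margin, but both missed the threshold, at 1.49 ± 0.45 (limma adjusted p = 0.149) for Irf9 and 1.03 ± 0.31 (limma adjusted p = 0.148) for Stat2 against P0C tumours. Irf1 (0.98 ± 0.43), Irf8 (0.53 ± 0.45) and Irf3 (0.56 ± 0.28) had smaller differences, at limma adjusted p of 0.296, 0.621 and 0.368. Irf3, which is activated by phosphorylation rather than by its level, overlapped between the groups.

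The antiviral effectors included the widest change of all members. Ifit1, which binds viral RNA that lacks a host-like cap, stood at 11.61, 10.06 and 12.10 in P0F tumours, at 5.58 and 6.93 in P0C tumours 1 and 2 with a blank in P0C tumour 3, and at 7.32, 5.84 and 5.90 in E16C tumours. Its difference from the P0C tumours with a value was 5.00 ± 0.71 (limma adjusted p = 0.0243). Samd9l rose by 4.06 ± 0.67 (limma adjusted p = 0.0281), Rsad2, the radical SAM enzyme viperin, by 3.63 ± 0.58 (0.0277), Mx1, a dynamin-like GTPase, by 1.92 ± 0.36 (0.0442) and Isg20, an exonuclease, by 1.54 ± 0.28 (0.0427). Bst2, Ifit2, Mx2 and Rtp4 had differences of 2.22, 2.32, 1.83 and 3.03 with limma adjusted p of 0.0805, 0.194, 0.0682 and 0.0587.

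In the oligoadenylate synthetase family Oasl1, Oasl2, Oas2 and Oas1b were higher, of which Oas2 and Oas1b passed the filter only through the P0F tumours. Oasl1, a family member without synthetase activity that restrains translation of Irf7 mRNA in mice, stood at 11.71, 9.79 and 11.53 in P0F tumours and between 6.66 and 7.20 in the 6 cerebellar tumours. The difference from P0C tumours was 4.06 ± 0.45 (limma adjusted p = 0.0100). Oas2, whose product makes the oligoadenylates that activate RNase L, stood at 9.24, 8.90 and 10.56 against 5.78 to 6.71, a difference of 3.34 ± 0.41 (limma adjusted p = 0.0106). Oasl2 rose by 3.87 ± 0.52 and Oas1b by 2.64 ± 0.42. The other 3 genes of the family, Oas1d, Oas1f and Oas1h, were too low to be tested and lay between 4.08 and 6.02 in P0F tumours.

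Of the 5 interferon-inducible GTPases, the guanylate-binding proteins Gbp2, Gbp3, Gbp5 and Gbp7 rose by 3.38 ± 0.44, 3.66 ± 0.47, 2.06 ± 0.35 and 3.33 ± 0.49 (limma adjusted p of 0.0140, 0.0140, 0.0352 and 0.0217). Gbp3 stood at 10.69, 9.55 and 11.49 in P0F tumours, 6.68, 7.50 and 6.57 in P0C tumours and 6.81, 7.18 and 6.42 in E16C tumours. Irgm1, an immunity-related GTPase, stood at 10.59, 9.66 and 11.42 in P0F tumours, but P0C tumour 2 reached 10.18 while P0C tumours 1 and 3 were at 5.82 and 5.69. With that overlap its difference of 3.33 ± 1.06 missed the threshold (limma adjusted p = 0.167).

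None of the 4 Ifitm genes passed. Ifitm2 and Ifitm3 are known to restrict virus entry, and Ifitm5 is known from bone-forming cells. Ifitm3 stood at 12.75, 11.83 and 12.94 in P0F tumours, but at 12.51 in E16C tumour 1, against 9.03 to 10.25 in the other 5 cerebellar tumours. Ifitm5 and Ifitm7 differed by 0.17 ± 0.32 and -0.21 ± 0.34 from P0C tumours. In the Ifi200 family, only Ifi203 could be tested, and its difference of 1.09 ± 0.83 missed the threshold (limma adjusted p = 0.563). Among the other induced genes, Trim30a, which restrains Toll-like receptor signalling, stood at 9.84, 9.22 and 11.74 in P0F tumours and 5.79 to 6.75 in the cerebellar ones, a rise of 3.90 ± 0.56 over P0C tumours (limma adjusted p = 0.0215). Ifi27l2b differed by -0.08 ± 0.18, at 6.67, 6.69 and 6.67 in P0F tumours and 6.51 to 6.93 in cerebellar tumours. Ifi30, a lysosomal thiol reductase, had its highest level in E16C tumour 2, at 11.36, against 10.77, 9.62 and 9.13 in P0F tumours.

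**Figure D2:**
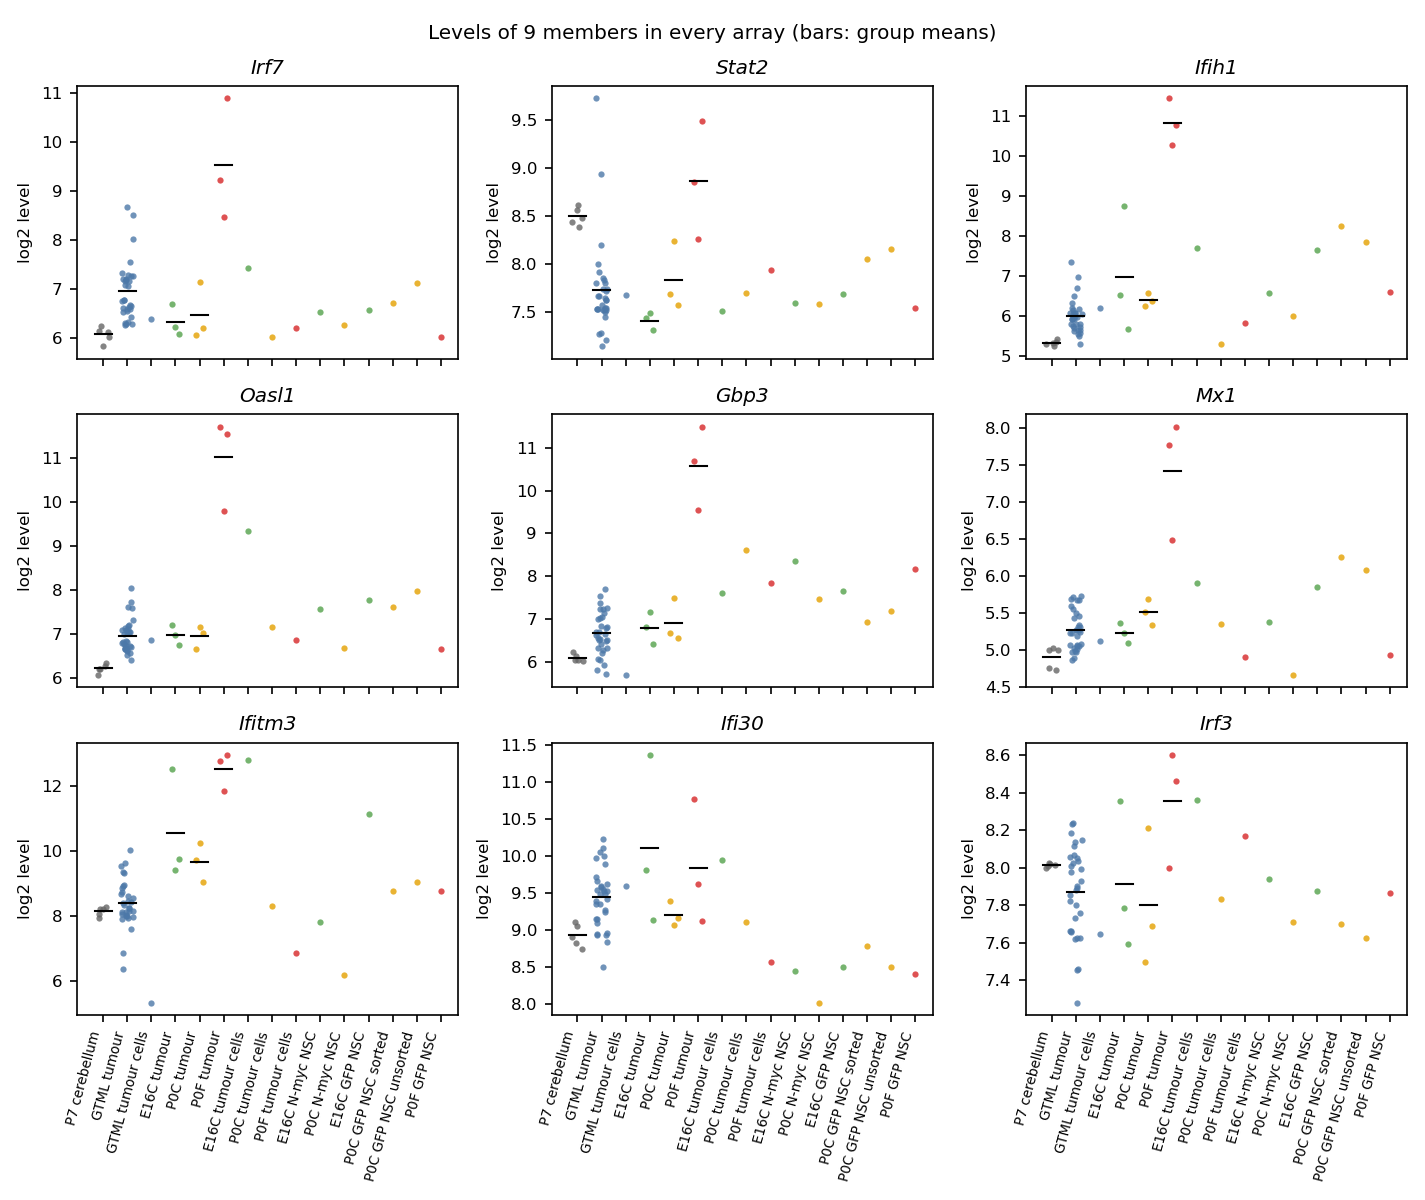
Log2 level of 9 members in every array, 1 panel a gene, with a point for each array and a bar at the mean of each group of over 1 array (grey P7 cerebella, blue GTML, green E16C, yellow P0C, red P0F). Irf7, Ifih1, Oasl1, Gbp3 and Mx1 have their 3 P0F tumours above the 6 cerebellar tumours, while Ifi30 and Irf3 overlap.

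A comparison with E16C tumours, added after P0F tumours had been seen to stand apart, used the same P0F arrays. Of 38 members tested, 11 were higher and 0 lower, where 0.284% of all genes tested were higher. Of the 38, 16 passed the filter only through the P0F tumours, and 6 of these were higher: Ifit1, Mx1, Mx2, Oas2, Rsad2 and Trim30a. Of the other 22, 5 were higher: Gbp2, Gbp3, Gbp7, Oasl1 and Oasl2. The 11 were Ifit1 (4.90 ± 0.64), Trim30a (4.12 ± 0.56), Oasl1 (4.04 ± 0.45), Oasl2 (3.98 ± 0.52), Rsad2 (3.82 ± 0.58), Gbp3 (3.77 ± 0.47), Oas2 (3.37 ± 0.41), Gbp7 (3.02 ± 0.49), Gbp2 (3.01 ± 0.44), Mx2 (2.95 ± 0.41) and Mx1 (2.20 ± 0.36), at limma adjusted p from 0.0263 to 0.0499. Irf7 missed it at 3.20 ± 0.56 (limma adjusted p = 0.0581). Without E16C tumour 1, 2 or 3 the count was 0, 1 and 1, and without P0F tumour 1 or 3 it was 0 and 5. Stat2 differed by 1.46 ± 0.31, Irf9 by 1.53 ± 0.45, Irf1 by 1.28 ± 0.43, Irf8 by 1.20 ± 0.45 and Irf3 by 0.44 ± 0.28, none past the threshold.

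**Figure D3:**
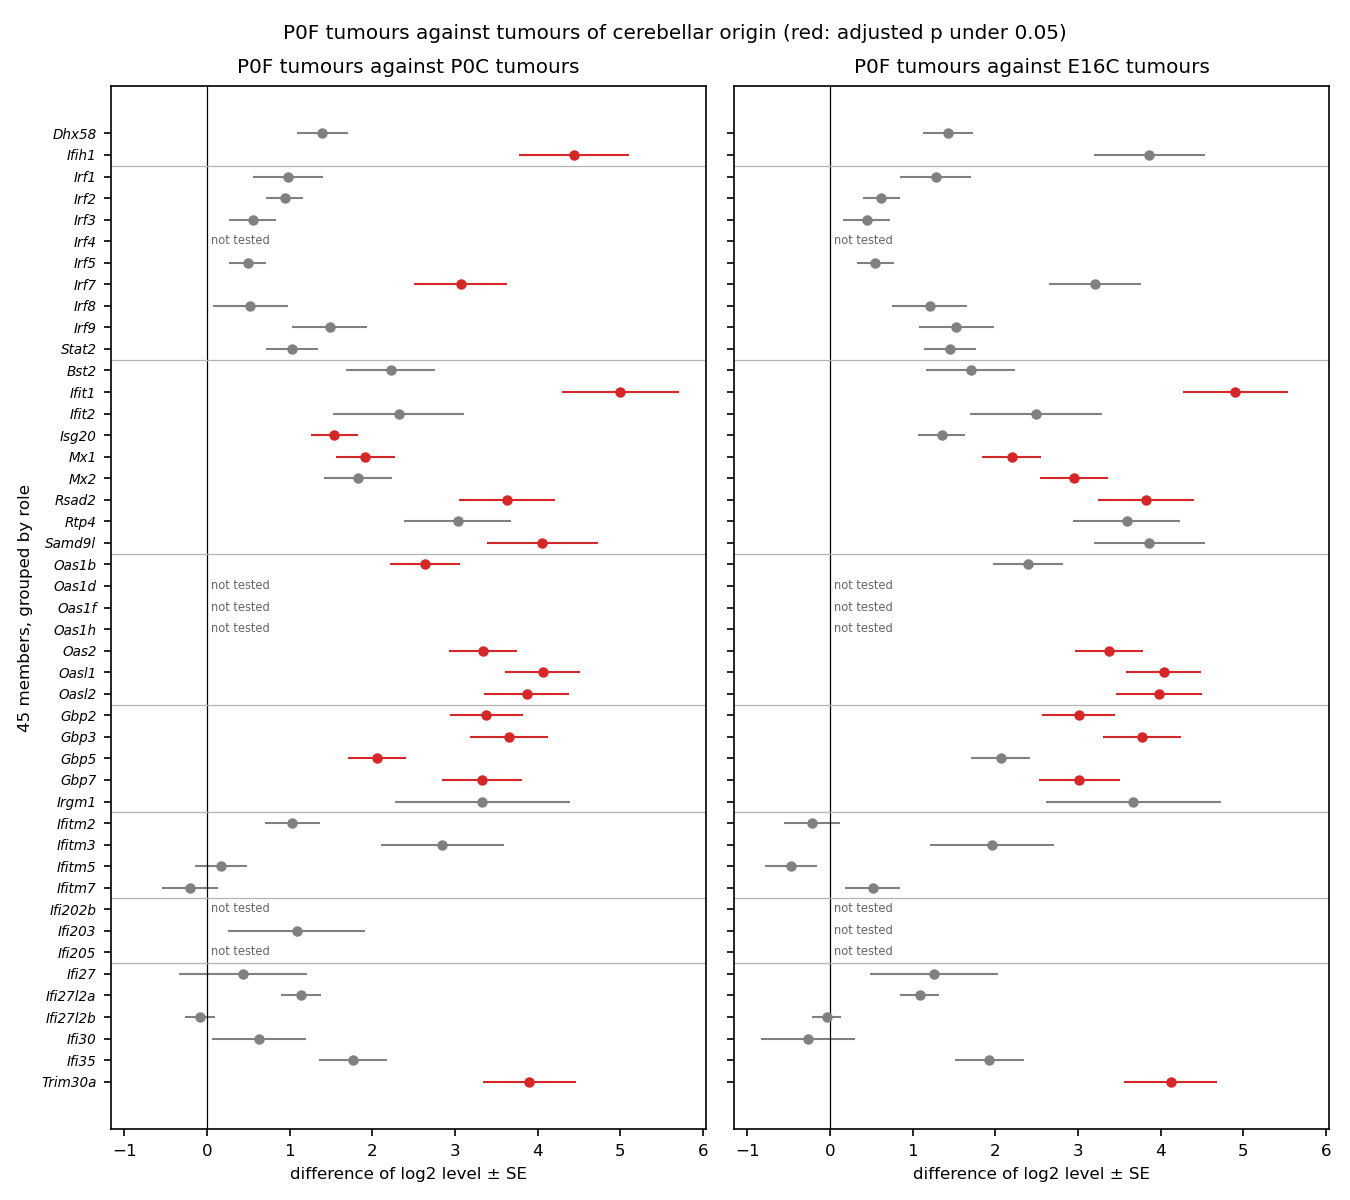
Difference in log2 level (points, with the SE as bars) of P0F tumours from P0C tumours (left) and E16C tumours (right) for each tested member, grouped by role as in the heat map. Red marks an adjusted p under 0.05 (16 genes on the left, 11 on the right). Both panels use the same 3 P0F tumours.

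Between the tumours of cerebellar origin, P0C against E16C, limma called 0 of 27 tested members at the adjusted threshold, where 0.762% of all genes tested were called in either direction. The unadjusted limma p was under 0.05 for 2 of the 27 members and for 1694 of the 11549 genes tested. Irf8 differed by 0.68 ± 0.45, Stat2 by 0.42 ± 0.31, Irf1 by 0.30 ± 0.43, Irf9 by 0.04 ± 0.45 and Irf3 by -0.11 ± 0.28. P0C tumour 2 carried the highest mean level over members of these 6 tumours, 7.25, against 6.45 to 6.98 in the others, with Ifi27 at 10.97, Irgm1 at 10.18 and Irf8 at 8.92. Its endothelial and pericyte score was also the highest of the 6, at 9.30 against 7.53 to 8.14, and its part in these levels was not tested.

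Myeloid markers were read beside these genes. The mean of the 17 microglia and macrophage markers was 9.18, 8.65 and 8.60 in P0F tumours, 8.63, 8.61 and 7.74 in P0C tumours and 8.02, 8.20 and 8.13 in E16C tumours, and 0 of the 17 passed the limma test against either group. Lymphocyte markers averaged 6.03, 5.77 and 5.56 in P0F tumours and 5.58 to 5.85 in the cerebellar ones, with the T cell marker Cd3d at a mean of 5.02 in P0F tumours, under the percentile 25. P0C tumours 1 and 2 were near P0F tumours 2 and 3 in myeloid score and had mean member levels of 6.53 and 7.25, against 7.99 and 9.14. GTML tumour 18 had the highest myeloid score of all arrays, 9.28, with a mean member level of 7.15. The part of these cells in the P0F levels was not tested, and in bulk tumours fewer cells of a type and less RNA per cell cannot be told apart.

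**Figure D4:**
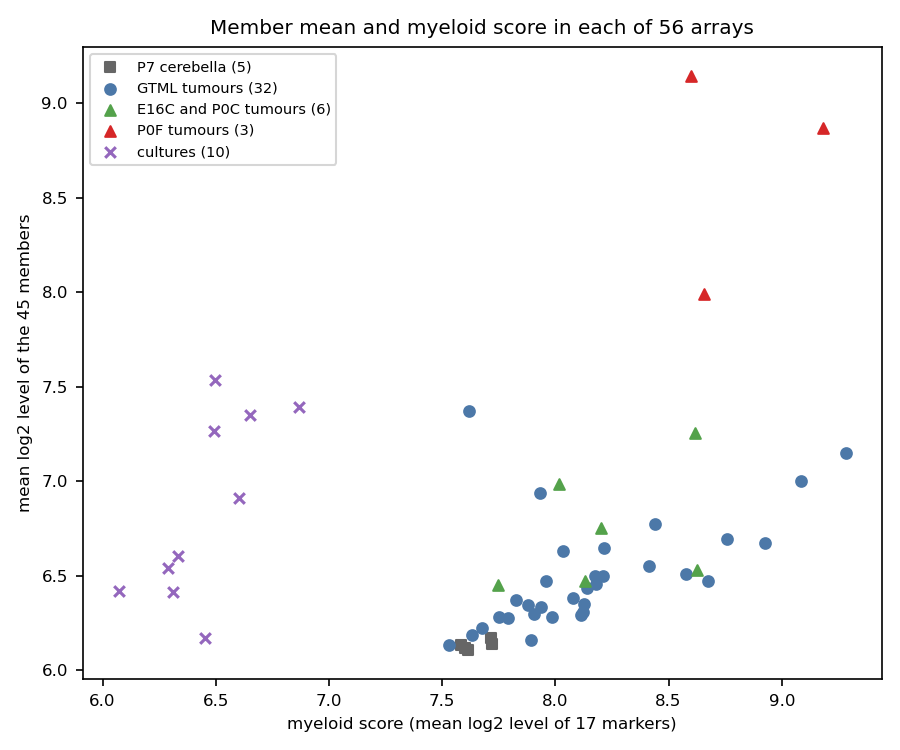
Mean log2 level of the 45 members (blank cells left out) against the myeloid score, the mean log2 level of 17 markers, with a point for each of the 56 arrays. The 3 P0F tumours (red triangles) lie at 7.99 to 9.14, above all other arrays, and the 10 cultures (crosses) lie at the lowest myeloid scores, 6.07 to 6.87.

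Between GTML tumours and P7 cerebella members differed in both directions, and the count of higher ones leaned on the filter. With limma across 12275 genes, 21 of 33 tested members were higher and 3 lower, where 32.9% of all genes tested were higher and 24.8% lower. Of the 33, 18 passed the filter only through the tumours, and among the other 15, 5 were higher, a share near that of all genes. Without tumours 20, 22, 30 and 31, 19 of 29 members were higher and 4 lower, with the share of all genes in that setting not given here. The median difference over tested members was 0.51, against 0.10 over all genes. Centring each array on its median moved the median over all genes to 0.25, and the share of higher among called genes from 57.0% to 69.4%.

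Among the transcription factors, Irf7 stood at 5.82, 6.01, 6.14, 6.11 and 6.24 in the 5 cerebella and ran from 6.27 through a median of 6.76 to 8.68 in the tumours. The groups did not overlap, and the tumours were higher by 0.90 ± 0.27 (limma adjusted p = 0.00432). Irf1 (0.65 ± 0.17), Irf8 (0.57 ± 0.13), Irf5 (0.49 ± 0.12) and Irf2 (0.38 ± 0.15) were also higher, while Irf3 (-0.14 ± 0.11, limma adjusted p = 0.282) and Irf9 (0.15 ± 0.15, limma adjusted p = 0.408) did not pass. Stat2 went the other way: it stood at 8.38 to 8.62 in the cerebella and at 7.15, 7.63 and 9.72 (lowest, median, highest) in the tumours, lower by 0.77 on average (SE 0.22, limma adjusted p = 0.00271). Its 2 highest tumours were 20 and 30, at 9.72 and 8.94, which also stood apart by their photoreceptor-like and neuronal markers.

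The widest rises were those of Gbp2 (0.94 ± 0.28), Ifit1 (0.94 ± 0.24), Irf7, Ifi27 (0.88 ± 0.29), Oasl1 (0.74 ± 0.17), Oasl2 (0.71 ± 0.16), Trim30a (0.69 ± 0.22) and Ifi27l2a (0.67 ± 0.25), at limma adjusted p from 0.000312 to 0.0188. Ifitm2 (-0.83 ± 0.20) and Ifit2 (-0.82 ± 0.21) fell together with Stat2. Every tumour lay above every cerebellum for 5 members, Irf7, Isg20, Oas2, Oasl1 and Oasl2, where 4.22% of all genes tested did. As an example, Oasl1 stood at 6.08 to 6.34 in the cerebella and at 6.40, 6.83 and 8.05 in the tumours, and Isg20 at 6.27 to 6.57 against 6.62, 6.91 and 7.47. These 5 members passed the filter only through the tumours, with at least 1 cerebellum under the percentile 25. The same held for all of the widest rises except Ifi27. The myeloid score was 7.58 to 7.72 in the cerebella and 7.53 to 9.28 in the tumours, and 9 of 16 tested myeloid markers were higher and 1 lower. The lymphocyte score was 5.13 to 5.27 in the cerebella and 5.35 to 6.79 in the tumours, with 6 of 6 tested markers higher. All 10 measured lymphocyte markers had a mean in the cerebella under the filter level of 6.30, the highest being Cd3e at 6.18. The 6 thus passed the filter only through the tumours, so their count leaned on it, and the other measured markers were too low to be tested. The part of myeloid cells and lymphocytes in these differences was not tested.

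Levels differed widely among GTML tumours, and those of several members ran with the myeloid score. In a limma fit of each gene on that score over the 32 tumours, 6 of 26 tested members had a rising slope and 0 a falling one, where 1.92% of all genes tested had a rising slope. The slope, in log2 units of the gene per log2 unit of the score, was 1.11 ± 0.17 for Gbp2, 0.93 ± 0.19 for Irf7, 0.87 ± 0.14 for Gbp3, 0.83 ± 0.15 for Trim30a, 0.45 ± 0.09 for Irf5 and 0.41 ± 0.10 for Irf8, at limma adjusted p from 3.68e-05 to 0.0165. Irf5 and Irf8 are factors that myeloid cells are known to express, and of the 6 only Gbp2, Gbp3 and Trim30a held the response element letters in their RefSeq windows. Stat2 (0.10 ± 0.20), Irf1 (0.18 ± 0.16), Irf3 (0.05 ± 0.11) and Irf9 (0.25 ± 0.13) did not pass.

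Without tumours 20, 22, 30 and 31, 18 of 25 tested members had a rising slope, where 4.81% of all genes tested did. Gbp2 then correlated with the score at r = 0.915 (rho = 0.929) over 28 tumours, against r = 0.754 (permutation p = 1e-05, the smallest that 100000 permutations give, adjusted over 26 members 8.67e-05) and rho = 0.743 (permutation p = 1e-05, adjusted 0.00013) over 32. Irf7 correlated at r = 0.659 (permutation p = 5e-05, adjusted 0.00026) and rho = 0.590 (permutation p = 0.0004, adjusted 0.00173) over 32 and r = 0.875 over 28. Without the 2 tumours farthest from the median score, 18 and 19, r was 0.723 for Gbp2 and 0.383 for Irf7, and the limma fit called 2 members, so the relation of Irf7 leaned on those 2 tumours. Levels of Irf7 in tumours 18 and 19 were 8.68 and 8.51, the highest of the 32. Their lymphocyte scores were 6.34 and 6.79, against a median of 5.78 over the 32. Tumour 22 had a lymphocyte score of 6.44 at a myeloid score of 7.62. Of 4 tested lymphocyte markers, 1 had a rising slope on the myeloid score. The part of lymphocytes in these relations was not tested.

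**Figure D5:**
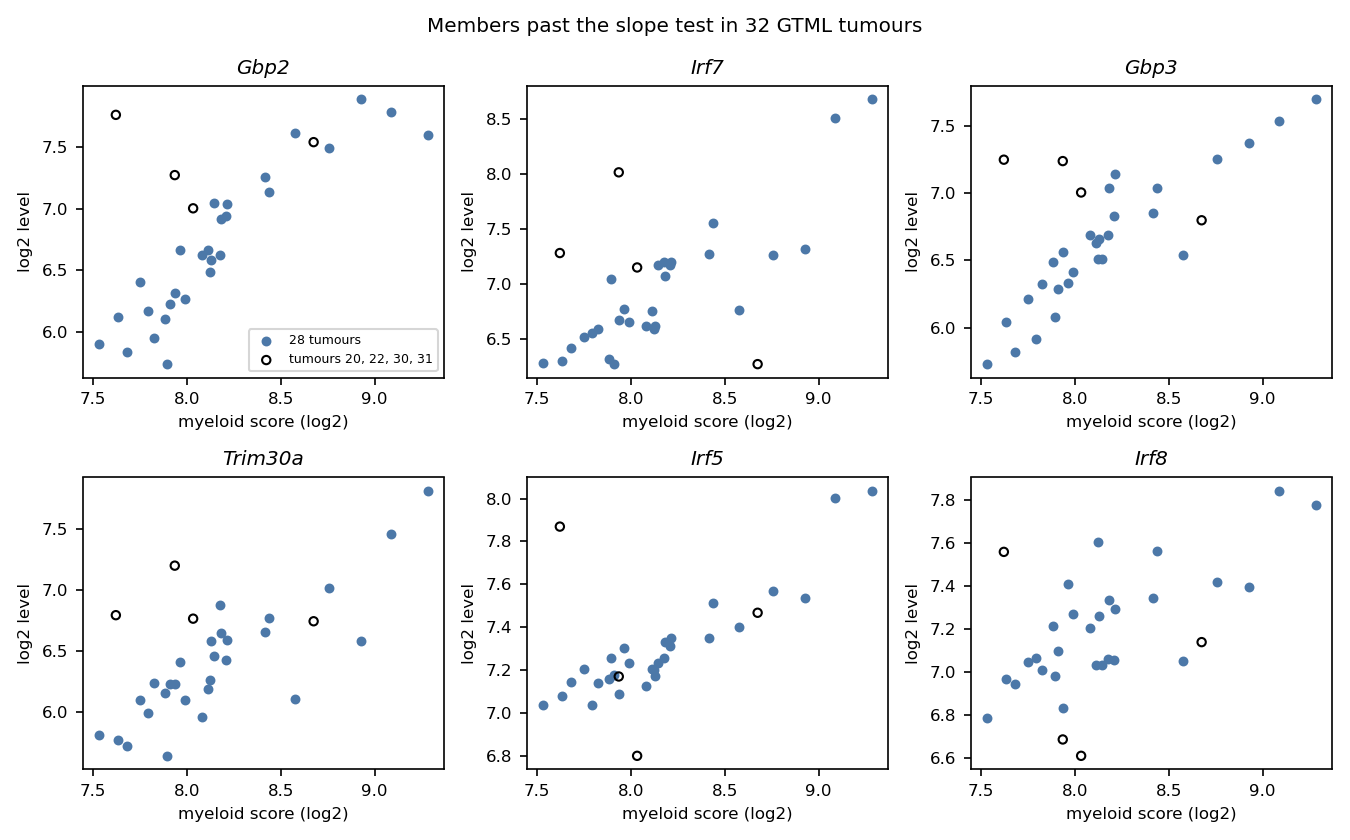
Log2 level of the 6 members past the slope test against the myeloid score (mean log2 level of 17 markers) in 32 GTML tumours, a point for each tumour, with open circles for tumours 20, 22, 30 and 31. Gbp2 runs from 5.74 to 7.88 and has the steepest slope, 1.11.

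The members also ran with each other across these tumours. Over the 26 tested members, the median Pearson r of a pair was 0.458 over 32 tumours and 0.452 over 28, against 0.00436 and -0.00237 over all pairs of the 11380 genes tested. These correlations share the arrays and their content and are given as a description. The genes most like Irf7 were Trim30a (r = 0.835 over 32 tumours, 0.871 over 28) and Rtp4 (0.826 and 0.829), and Irf5 moved from 0.697 over 32 tumours to 0.933 over 28. Irf1, Ifi30 and Ifitm5 stood outside, with median r to the other members of 0.05, 0.02 and 0.01.

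A few tumours held most of the peaks, for members and, in part, for all genes. Tumour 22 was the highest of the 32 for 16 of the 45 members (26.3% of all 15224 genes), tumour 18 for 10 (3.67%), tumour 20 for 8 (9.33%) and tumour 19 for 3 (1.31%). In tumour 22 Ifi205 stood at 7.15, against at most 4.60 in the other 31, and Ifi27l2a at 8.79 against at most 7.02. Its myeloid score was 7.62, the next to lowest of the 32, its lymphocyte score 6.44, and its endothelial and pericyte score of 9.21 was the highest of the GTML tumours. Rsad2 was highest in tumour 31, at 8.27 against at most 6.71 in the others.

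Orthotopic tumours as a whole were higher than GTML tumours for 25 of 34 tested members and lower for 0, where 26.7% of all genes tested were higher. The labelling protocol differs between these sets and cannot be told apart from them. Of the 34 members, 5 passed the filter only through the orthotopic tumours, and all 5 were higher. Of the other 29, 20 were higher. The comparison was split by origin after the P0F tumours had been seen to stand apart. P0F tumours were higher for 34 of 39 members, where 21.3% of all genes tested were higher, and for 23 members every P0F tumour lay above all 32 GTML tumours (7.92% of genes). Of the 39, 5 passed the filter only through the P0F tumours, and all 5 were higher. Of the other 34, 29 were higher. The 6 tumours of cerebellar origin were higher for 7 of 34 members, where 23.4% of all genes tested were higher: Ifitm2 (2.35 ± 0.22), Ifitm3 (1.72 ± 0.36), Ifit2 (0.86 ± 0.27), Ifih1 (0.70 ± 0.24), Irf2 (0.62 ± 0.14), Ifitm5 (0.39 ± 0.14) and Dhx58 (0.30 ± 0.11). Without GTML tumours 20, 22, 30 and 31 the counts were 26 of 32 members for all orthotopic tumours, 35 of 38 for P0F and 7 of 32 for cerebellar ones. The shares of all genes in that setting are not given here. Without E16C tumour 2 the last count was 4, and without P0C tumour 2, 2 members were lower. Ifitm2 was the member of widest distance, at 11.01 to 12.26 in E16C tumours, 9.94 to 10.45 in P0C tumours and 7.95 to 9.74 in GTML tumours. Stat2, Irf1, Irf3, Irf7, Irf8 and Irf9 did not pass in the cerebellar comparison, with differences from -0.57 (Irf7) to 0.33 (Irf1). In P0F tumours all 6 were higher than in GTML tumours, from 0.48 ± 0.15 for Irf3 to 2.56 ± 0.38 for Irf7.

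The cultures lay low in the myeloid score and differed among themselves. In the E16C culture of GFP NSCs, 33 of 45 members lay above the median of the 6 cerebellar tumours, where 54.5% of all 15224 genes did. In the sorted and unsorted P0C cultures 38 members did in each (53.9% and 58.7% of genes), and in the P0F culture 14 did (43.4%). Ifit1, for example, was at 8.14 in E16C GFP NSCs and at 9.73 and 9.32 in sorted and unsorted P0C GFP NSCs, and blank in P0F GFP NSCs and in both N-myc cultures. Rsad2 was at 8.43, 9.40 and 9.80 in these cerebellar cultures and 6.23 in the P0F one. Their myeloid scores ran from 6.49 to 6.87, against 7.74 to 8.63 in the cerebellar tumours. The myeloid marker Cd68 went the other way in P0C GFP NSCs, at 10.74 sorted and 11.36 unsorted, against a mean of 9.79 in P0C tumours.

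Across all origins, with origin as an additive term over 18 arrays, limma called 1 of 35 tested members between orthotopic tumours and GFP NSCs, Ifit1 (-2.63 ± 0.58, adjusted p = 0.0176, its 6 blanks among the 18 arrays left out), where 11.7% of all genes tested were called in either direction. Without either P0C GFP NSC array no member was called. The comparison was then split by origin, after P0F tumours had been seen to stand apart. The 1 P0F GFP array averaged 9.31 over the 4 photoreceptor-like markers, against 6.77, 6.82 and 7.07 in the cerebellar GFP arrays. P0F tumours were higher than P0F GFP NSCs for 15 of 40 members and lower for 0, where 1.06% of all genes tested were higher. Testing required 1 of the compared arrays to exceed the percentile 25. The P0F GFP culture lay under it for Trim30a (4.97), Oasl2 (6.15), Samd9l (5.32), Rtp4 (5.86), Oas2 (5.78), Rsad2 (6.23) and Irf7 (6.02). These passed only through the P0F tumours, while Oasl1 (6.67) and Ifih1 (6.60) did not. The widest rises were those of Trim30a (5.30 ± 0.76), Oasl2 (4.86 ± 0.69), Samd9l (4.49 ± 0.89), Oasl1 (4.34 ± 0.61), Ifih1 (4.24 ± 0.90), Rtp4 (4.24 ± 0.86), Oas2 (3.79 ± 0.55) and Rsad2 (3.77 ± 0.78). Irf7 was also among the 15, at 3.50 ± 0.75 (limma adjusted p = 0.0442). Without P0F tumour 1 or 3 the 15 were 6 and 9, and under quantile normalization 9.

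Tumours of cerebellar origin were lower than their GFP NSCs for 4 of 35 members and higher for 0, where 7.61% of all genes tested were lower. Higher genes made up 37.5% of all genes called there, but 62.8% after quantile normalization and 58.8% with centred arrays. The 4 members were Rsad2 (-2.75 ± 0.50), Ifit1 (-2.53 ± 0.56), Samd9l (-2.02 ± 0.57) and Ifi27l2a (-0.81 ± 0.22), at limma adjusted p from 0.0082 to 0.0451. Rsad2, Ifit1 and Samd9l were below the GFP cultures in both cerebellar origins, with means in E16C tumours of 6.18, 6.35 and 5.94 against 8.43, 8.14 and 7.45 in E16C GFP NSCs. Ifi27l2a was so in P0C alone, at a mean of 6.16 in tumours against 7.84 and 8.36, while in E16C the tumour mean was 6.21 and the GFP culture 5.89. Leaving out E16C tumour 2 or 3, P0C tumour 1 or 3, or the sorted or unsorted P0C GFP NSCs left 2, 1, 1, 2, 1 and 1. The difference between the origins, tested as such, was positive for 10 of 37 members and negative for 0, where 0.303% of all genes tested were positive: it was 6.52 ± 0.92 for Rsad2, 6.51 ± 1.06 for Samd9l, 5.39 ± 0.81 for Oasl2, 5.16 ± 0.72 for Oasl1 and 5.04 ± 0.91 for Trim30a, with Gbp2, Oas2, Mx2, Mx1 and Ifi27l2a from 4.79 down to 2.50. Without the sorted or the unsorted P0C GFP NSCs the 10 were 0, and without P0F tumour 1 they were 3. The P0F side of each comparison rests on 1 GFP array, taken to vary like the replicated groups. That array averaged 9.31 over the 4 photoreceptor-like markers, against 6.77 to 7.07 in the cerebellar GFP arrays. The part of this in the differences was not tested. The regulators Stat2 (1.60 ± 0.49), Irf1 (2.71 ± 0.68), Irf7 (3.85 ± 0.89), Irf8 (1.75 ± 0.72), Irf9 (2.63 ± 0.71) and Irf3 (0.41 ± 0.44) did not pass this test of the difference.

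Cells grown out of P0F tumour 1 had lower levels than the P0F tumours. In the single P0F culture Trim30a was at 5.31, Oasl2 at 6.30, Ifih1 at 5.81, Ifitm3 at 6.86 and Irf7 at 6.20, and 38 of the 45 members lay below all 3 P0F tumours, where 25.4% of all 15224 genes did. The culture is 1 array, taken in the test to vary like the replicated groups, and its source is among the 3 tumours it was tested against. Testing required 1 of the compared arrays to exceed the percentile 25. The culture lay under it for Ifih1, Trim30a, Gbp2 (5.98), Oas2 (6.07), Mx2 (5.12), Oas1b (5.07) and, by a narrow margin, Oasl2. These passed only through the P0F tumours, while Ifitm3 and Oasl1 (6.86) did not. Against P0F tumours 9 of 40 members were lower and 0 higher, where 0.486% of all genes tested were lower: Ifitm3 (-5.66 ± 1.00), Ifih1 (-5.03 ± 0.89), Trim30a (-4.95 ± 0.76), Oasl2 (-4.71 ± 0.69), Oasl1 (-4.15 ± 0.61), Gbp2 (-3.81 ± 0.58), Oas2 (-3.50 ± 0.55), Mx2 (-3.28 ± 0.55) and Oas1b (-3.05 ± 0.57), at limma adjusted p from 0.0235 to 0.0483. Irf7 missed it at -3.32 ± 0.75 (limma adjusted p = 0.0868). Without P0F tumour 1, 2 or 3 the 9 were 0, 16 and 5. Myeloid markers moved with them: the score was 6.31 in the culture, 9 of 17 markers were lower and 0 higher, and their part in the fall was not tested.

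Cells grown out of E16C tumour 1 had the highest mean member level of the cultures, 7.53. Of the 45 members, 26 lay above all 6 cerebellar tumours in the E16C cells, 5 in the P0C cells and 3 in the P0F cells, where 21.6%, 17.3% and 19.2% of all genes did. Oasl1 was at 9.34, Gbp2 at 8.40, Irf1 at 8.91 and Ifit1 at 9.64 in the E16C cells, at a myeloid score of 6.49. The mean of 4 astrocyte markers was 6.24 in the E16C cells, 7.73 in the P0C cells and 7.64 in the P0F cells. The endothelial and pericyte score was 6.76, 6.54 and 6.45. The part of such differences between the cultures in the member levels was not tested. For cerebellar cells against cerebellar tumours limma called 0 of 34 members, where 3.61% of all genes tested were called in either direction. The unadjusted limma p was under 0.05 for 8 of the 34 members and for 2284 of the 11999 genes tested. The difference between origins in this contrast was called for 0 of 37 members, where 0.0167% of all genes tested were called. The fall in P0F cells was thus not shown to differ from the cerebellar origins. At an unadjusted limma p under 0.05 were 26 of the 37 members and 807 of the 11973 genes tested. Over all 3 origins 0 of 39 members were called, where 3.77% of all genes tested were called. The unadjusted limma p was under 0.05 for 3 of the 39 members and for 2365 of the 12066 genes tested. The nearest regulator was Irf8 at -1.30 ± 0.39 (limma adjusted p = 0.0764).

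Among cultures, limma called 0 of 32 members between tumour cells and GFP NSCs and 0 of 32 between N-myc and GFP NSCs, where 0.669% and 0.00832% of all genes tested were called. The unadjusted limma p was under 0.05 for 0 members in either, against 1881 of 11663 and 1071 of 12016 genes tested. The medians over members were -0.20 and -0.37. These comparisons rest on 3 tumour cell, 2 N-myc and 4 GFP arrays. Irf1 differed by -1.02 ± 0.72 and Irf7 by 0.17 ± 0.94 between N-myc and GFP NSCs. In the P0C pair the mean level over members was 6.54 in N-myc NSCs and 7.35 and 7.39 in GFP NSCs, and in the E16C pair 6.91 and 7.26.

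The single culture of GTML tumour cells had a mean member level of 6.17. Of the 45 members, 10 lay below all 32 GTML tumours, 34 lay within their range, 0 lay above it and 1 was blank, where 10.7% of all 15224 genes lay below and 14.1% above. The labels do not make clear which labelling protocol this culture had. The 10 were Gbp2, Gbp3, Gbp7, Irgm1, Ifitm3, Ifitm7, Irf5, Irf8, Irf9 and Trim30a. Ifitm3 was at 5.32 against 6.37 to 10.03 in the tumours, and Gbp2 at 5.36 against 5.74 to 7.88. All 6 members past the slope test except Irf7 were among these 10. The myeloid score of the culture was 6.45, under the 7.53 to 9.28 of the tumours. Its endothelial and pericyte score was 6.25, also under the 6.85 to 9.21 of the tumours. The part of these cells in the low levels was not tested.

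Among listed genes of the pathway outside the 45 members, none of the receptors, kinases, suppressors, sensors and adaptors passed the test of P0F against P0C or E16C tumours. Against GTML tumours, labelled by another protocol, 4 of 10 receptor, kinase and suppressor genes and 8 of 9 sensors and adaptors were higher in P0F tumours. Of all genes tested there, 21.3% were higher. Of 10 tested genes for interferon receptors, kinases and suppressors, 0 passed against P0C or E16C tumours, with medians of 0.24 and 0.23. Of 9 tested nucleic acid sensors and adaptors, 0 passed, with medians of 0.85 and 0.60. Ddx58, which encodes the RNA sensor RIG-I, had a mean of 10.52 in P0F, 7.97 in P0C and 7.68 in E16C tumours, differences of 2.55 ± 0.78 and 2.84 ± 0.78 (limma adjusted p = 0.152 and 0.188). Tlr3 differed by 2.14 ± 0.75 and 2.16 ± 0.75 (limma adjusted p = 0.204 and 0.296). Of the other interferon-induced genes on the list, 4 of 19 were higher than in P0C tumours and 3 of 18 higher than in E16C tumours. Of all genes tested, 0.817% and 0.284% were higher. The chemokine Cxcl10 was higher by 4.55 and 3.95 (limma adjusted p = 0.0100 and 0.0312) and Parp14 by 2.94 and 3.02 (0.0205 and 0.0312), with the immunoproteasome subunit Psmb8 (2.69) and the RNA editor Adar (2.03) against P0C tumours and Ddx60 (3.23) against E16C tumours. Ddx60 had a mean of 4.57 in E16C tumours, under the percentile 25, and passed the filter only through the P0F tumours. Ifnb1, the gene for interferon beta, stood at a mean of 5.69 in P0F, 5.62 in P0C and 6.16 in E16C tumours, under the percentile 25 in each.

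In GTML tumours against cerebella, 4 of the 10 receptor and kinase genes were higher and 5 lower, where 32.9% of all genes tested were higher and 24.8% lower. The 4 of widest change were lower: Jak2 (-0.83), Ifnar2 (-0.75), Jak1 (-0.71) and Ifngr2 (-0.69), at limma adjusted p from 7.09e-07 to 0.00454. Of 8 sensors and adaptors, 4 were higher, among them Zbp1 (0.65) and Tlr9 (0.58), and 1 lower, Aim2 (-0.59). Of 17 other induced genes 7 were higher and 0 lower, led by Lgals3bp (1.32) and Slfn2 (1.03). On the myeloid score, 6 of 15 other induced genes had rising slopes, where 1.92% of all genes tested did. The widest were Slfn2 (1.24), B2m (1.20), Lgals3bp (1.03) and Parp14 (0.78). The sensors and adaptors Tlr7 (0.81), Myd88 (0.79) and Zbp1 (0.36) also had rising slopes, and none of 9 receptor and kinase genes did.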

How the data were processed

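Transcript levels were read from the authors' deposited table of 17831 probes and 56 arrays, which the submitters' processing notes tie to RMA and the mm9 build. That the deposited values are log2 was taken from their range, 2.37 to 14.88, and no source used here states the rule behind the 31111 blank cells (3.12%). The 15620 probes with a single gene symbol represented 15224 genes, and for a gene with several probes the one of highest mean was taken, while 1370 probes with several symbols and 841 with none were left out. No array-wide rescaling was added. The number of arrays limits the precision.

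Genes were kept where the number of arrays over 6.30, the percentile 25 of the table, reached the size of the smaller group, and fitted with limma 3.58.1 (lmFit, eBayes, R 4.3.3), with Benjamini-Hochberg adjustment over all genes tested and a threshold of 0.05. P7 cerebella and GTML tumours, the 9 orthotopic tumours, and the transplant series with origin as an additive term were fitted separately. The 45 members, the other gene lists and the comparisons were chosen with earlier results of these data known, and the comparisons that single out P0F or cerebellar tumours were added after P0F tumours had been seen to stand apart. In each comparison the text names the regulators Stat2, Irf1, Irf3, Irf7, Irf8 and Irf9 and up to 8 members of widest change past the threshold. Scores are means of log2 levels over marker lists. In 3 E16 samples the cell type tags are out of step with the titles, and the titles were used. Same-numbered samples correlated at -0.158 to 0.195 in their deviations from group means, so the numbers were not taken to pair samples. Alternatives covered the filter, the mean of a gene's probes, quantile normalization, median centring, trend and robust eBayes, array weights, filled blanks, a replicate block and left-out arrays.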

Additional observations from a re-analysis of the deposited data

Results flagged for a closer look

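The change from GFP NSCs to tumours differed between forebrain and cerebellar origin, by limma's test of the difference itself, for 10 members. The difference, forebrain minus cerebellar, was 6.52 for Rsad2, 6.51 for Samd9l, 5.39 for Oasl2, 5.16 for Oasl1, 5.04 for Trim30a, 4.79 for Gbp2, 3.95 for Oas2, 3.62 for Mx2, 3.13 for Mx1 and 2.50 for Ifi27l2a, in log2 units. The forebrain side rests on 1 GFP array, which averaged 9.31 over the 4 photoreceptor-like markers, against 6.77 to 7.07 in the cerebellar GFP arrays. Without the sorted or the unsorted P0C GFP NSC array, 0 of these calls were left by limma.

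Probes that carry several gene symbols were used in no comparison. Of the 17 such probes that include a symbol of these families, 13 had every P0F tumour above every P7 cerebellum, and 10 had every P0F tumour above all 6 cerebellar tumours, where 34.5% and 4.09% of all 15224 genes did. P0F tumours and P7 cerebella were labelled by different protocols. The median difference of P0F tumours from P7 cerebella over the 17 was 1.72. Among the members, no array stood apart within the 5 P7 cerebella in any of the 45 groups of values examined.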

How the results depend on the processing

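Counts of members past the limma threshold are given here, and the cause of each shift was not tested except where fewer genes or arrays were used. Under the stricter filter (percentile 50), which tests fewer members, GTML tumours against P7 cerebella had 3 higher, orthotopic against GTML tumours 4, cerebellar orthotopic against GTML tumours 3, the myeloid slope 0, tumour cells against tumours 1 higher, and cerebellar tumours against GFP NSCs 2 lower. Of all genes tested, 28.1% were then higher in GTML tumours, 0.597% had a rising slope and 2.49% were higher in tumour cells than tumours. The shares for the other counts under this filter are not given here. With no filter the slope had 10 (2.02% of genes) and cerebellar orthotopic against GTML tumours 1 lower.

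Under array weights, GTML tumours had 6 members lower than P7 cerebella, 4 were lower in orthotopic tumours than GFP NSCs, 7 lower in tumour cells than tumours, 14 lower in tumour cells than GFP NSCs and 1 lower in N-myc than GFP NSCs. Array weights also gave a slope count of 16, 6 higher in P0F than E16C tumours, 3 higher in cerebellar orthotopic than GTML tumours, 7 lower in cerebellar tumours than GFP NSCs, 18 for the difference between origins against GFP NSCs, 19 lower in P0F cells than P0F tumours and 9 lower for the difference between origins in that contrast. The calls of all genes rose there too, to 16.6% lower in tumour cells and 5.81% in N-myc cells than GFP NSCs, 3.33% lower in P0F cells than tumours, 3.02% and 0.593% for these differences between origins and 4.38% for the slope. Lower genes also rose to 35.2% in GTML tumours against P7 cerebella, 21.4% in orthotopic tumours against GFP NSCs and 5.96% in tumour cells against tumours. Under quantile normalization, orthotopic tumours had 1 member higher than GFP NSCs and 1 lower than GTML tumours, P0F and cerebellar tumours 1 lower each than GTML tumours, P0F tumours 9 higher than P0F GFP NSCs, cerebellar tumours 2 lower than GFP NSCs and the difference between origins 5, where 0.815%, 4.88% and 0.171% of all genes were called so. Centred arrays gave 1 and 2 for cerebellar tumours, lower than GTML tumours and than GFP NSCs.

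Ifit1 was no longer lower in orthotopic tumours than GFP NSCs with filled blanks (0), with both P0C GFP arrays as 1 sample (0) or without both (0), and 3 members were lower without forebrain arrays. Without the 3 tumours numbered 1, tumour cells had 1 member higher than tumours. The slope count was 18 without 4 GTML tumours and 2 without the 2 farthest. With the replicate number as a block, 3 members were higher in P0F than P0C tumours and 0 than in E16C tumours (0.155% and 0% of genes). Over 10 same-numbered arrays of GTML tumours and cerebella, 11 members were higher and 5 lower with the block and 11 and 5 without it, and Irf2 turned to -0.085 in both. The same numbers mark no stated pairing.

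Leaving out single arrays gave 19 to 21 higher and 3 lower in GTML tumours against P7, 2 to 18 higher in P0F against P0C tumours, 0 to 15 against E16C, 32 to 34 against GTML and 6 to 19 against P0F GFP NSCs. It gave 0 to 1 lower both for tumour cells against tumours and for orthotopic tumours against GFP NSCs, 4 to 8 higher and 0 to 2 lower for cerebellar tumours against GTML, 1 to 6 lower for these against GFP NSCs and 0 to 15 for the difference between origins. For P0F cells against tumours it gave 0 to 16 lower, for cerebellar cells 0 to 1 higher and for their difference 0 to 8 lower. Among all genes called, the share higher moved from 36.9% to 60.1% (quantile) and 55.9% (centred) for orthotopic tumours against GFP NSCs, from 47.0% to 33.6% (quantile) for tumour cells against tumours, from 15.4% to 45.3% (centred) for tumour cells against GFP NSCs, from 78.4% to 66.7% (centred) for P0C against E16C tumours and from 52.9% to 37.0% (quantile) for the difference between origins. Of the values of single named members, 1722 kept direction and side of the threshold, 292 lost the call and 2 reversed.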
